A study of Mus musculus with 6 samples.

Results

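The genes described here are the enzymes, membrane proteins and sorting machinery of the lysosome in mouse liver cell cultures labelled as hepatic stellate cells. They are the genes whose deposited annotation holds the KEGG lysosome pathway, apart from the proton pump genes named Atp6 and the metal transporters Slc11a1 and Slc11a2. The annotation marked 124 of the 55401 genes in the table, and 113 were left once 9 Atp6 genes and the 2 Slc11a genes were set aside. Members were then selected on their measured level, at least 1 FPKM (fragments scaled to gene length and library size) in at least 3 of the 6 libraries, and 100 of the 113 genes had it. The choice used the level in any library and not the difference between genotypes, and no gene qualified through 1 genotype alone. In all, 12766 genes met the same minimum and were tested.

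Libraries were labelled as hepatic stellate cells of S100a16+/- mice (3 libraries) and of WT mice (3 libraries), all of the C57BL/6J strain. S100a16+/- mice are heterozygous for S100a16, an EF-hand calcium-binding protein gene, and no cell-specific driver is named in the labels. Cells of both genotypes had been kept for 7 days in medium with FBS, in which stellate cells turn into myofibroblasts. No group held freshly isolated cells, and the state of the cells was not tested. Cell type markers are given below. No label ties a library to an animal, and each p-value reflects only how far these samples vary, which may be technical.

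Lysosomes are acidic organelles whose hydrolases break down proteins, glycans, lipids and nucleic acids delivered by endocytosis, phagocytosis and autophagy. Most soluble hydrolases receive a mannose 6-phosphate tag in the Golgi, bind a tag receptor there and leave in clathrin-coated carriers. Many lysosomal genes carry E-box elements in their promoters that are bound by the MiT/TFE transcription factors TFEB, TFE3, MITF and TFEC. In the liver, resident macrophages are rich in lysosomal enzymes, and activating stellate cells use lysosomes to consume their lipid droplets.

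S100a16 (ENSMUSG00000074457, chromosome 3, 90537254 to 90543151, plus strand) checked the genotype labels. The S100a16+/- replicates 1, 2 and 3 had 18.0, 17.7 and 30.0 FPKM, against 57.7, 58.8 and 56.8 FPKM in the WT replicates. The groups did not overlap, and S100a16+/- replicate 3 lay above the other S100a16+/- libraries. The log2 change was -1.35 (SE 0.21, adjusted p = 0.0313, edgeR), or -1.63 without replicate 3. Leaving out any other library gave an adjusted p of 0.105 to 0.143 in edgeR.

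S100a16+/- replicate 3 differed from the other libraries of its genotype and from the WT libraries. Libraries held 61979103 to 76291481 counts. Across all tested genes its log2 FPKM correlated at 0.930 and 0.929 with S100a16+/- replicates 1 and 2 and at 0.949, 0.948 and 0.946 with the WT replicates, against 0.987 between S100a16+/- replicates 1 and 2 and 0.981 to 0.985 among WT libraries. This S100a16+/- library was thus closer to the WT libraries than to the others of its own genotype. S100a16+/- replicates 1 and 2 correlated with the WT replicates at 0.949 to 0.957, so they too stood apart from WT. It held 32.2 FPKM of Xist, the transcript of the inactive X chromosome, and the other 5 libraries held at most 0.0323. The stellate and myofibroblast markers summed to 1111, 1084 and 150 FPKM in the S100a16+/- replicates, against 942, 1051 and 1062 in WT, and 6 of these 17 markers, Lrat, Reln, Ngfr, Gfap, Colec11 and Rgs5, stayed under 1 FPKM in every library. Endothelial markers summed to 876, 841 and 2166 FPKM in S100a16+/- and to 1911, 1752 and 1785 FPKM in WT. Hepatocyte markers summed to 11.0, 10.4 and 519 FPKM in S100a16+/- and to 105, 92.0 and 71.6 FPKM in WT. The tests below are therefore given with and without S100a16+/- replicate 3, both from edgeR.

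Macrophage markers were abundant in every library, and their sum was far above that of the stellate and myofibroblast markers in each. The cultures thus held much macrophage RNA, whatever their label. All 23 markers were tested, and their summed level was 17849, 19113 and 14096 FPKM in the S100a16+/- replicates, against 11464, 11736 and 11156 FPKM in the WT replicates. The sum was higher in each S100a16+/- library than in any WT library, and Lyz2, given below, was a large part of it. The log2 change was above 0 in 14 of the 23 markers, against 50.2% of all tested genes. In FPKM, 9 markers had every S100a16+/- library above every WT library and 5 had every one below, against 12.5% and 18.9% of all tested genes. The edgeR test called 2.85% of all tested genes higher and 1.61% lower, and 15.8% and 16.4% without replicate 3. Of the 23 markers, 5 passed the test upward and 0 downward in edgeR, and without replicate 3 these counts were 11 and 8. Their median log2 change was 0.10, since a marker such as Csf1r, the receptor for the macrophage growth factor CSF1, had 242, 251 and 258 FPKM in S100a16+/- and 241, 252 and 237 FPKM in WT. Lyz2, the lysozyme of macrophages, had 9230, 10057 and 5460 FPKM in S100a16+/- and 4420, 4595 and 4377 FPKM in WT (log2 change 0.94, adjusted p = 0.101, edgeR, and 1.17, which passed, without replicate 3). In bulk RNA, more cells of a type and more RNA per cell cannot be told apart, and the part of macrophages in the lysosomal differences was not tested.

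Lysosomal transcripts took a larger share of the RNA in S100a16+/- cultures. The 100 genes held 5.86%, 6.03% and 5.34% of all FPKM in the S100a16+/- replicates, against 4.16%, 4.17% and 4.04% in the WT replicates. The S100a16+/- mean was 5.74% ± 0.359 and the WT mean 4.12% ± 0.0711 (SD, n = 3 each), and the groups did not overlap. The aspartic protease gene Ctsd alone made up 29.4%, 29.5% and 25.2% of this sum in S100a16+/- and 20.5%, 20.8% and 20.2% in WT. With Ctsd set aside the shares were 4.14%, 4.25% and 4.00% in S100a16+/- and 3.31%, 3.30% and 3.22% in WT, so the gap narrowed but the groups stayed apart. The sum rested on few genes, since the 5 most abundant held 63.0% of it in S100a16+/- and 53.9% in WT on average.

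Levels within the list ran from a mean of 0.973 FPKM over the 6 libraries to 3677 FPKM. Mean FPKM was above 500 for 8 genes, above 100 for 20 genes, between 10 and 100 for 56 and below 10 for 24, with a median of 25.2. By mean FPKM the order began with Ctsd at 3677 and the sphingolipid activator precursor Psap at 2405, followed by the cysteine proteases Ctsb at 1121, Ctss at 745 and Ctsz at 698. Lamp1, a glycoprotein that lines the lysosomal membrane, came next at 639 FPKM, then Cd68, its relative in macrophages, at 576 FPKM, and Lgmn at 545 FPKM.

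Of the 100 genes, 14 passed the test as higher in S100a16+/- cultures and 0 as lower (edgeR, adjusted p under 0.05). Among all tested genes the shares were 2.85% higher and 1.61% lower, or 4.46% either way. The share called higher, 14 in 100, lay above that of all genes. At an unadjusted p under 0.05 in edgeR, 37 were higher and 4 were lower, Ap1b1, Ap4m1, Cltb and Ctsf, against 12.4% and 9.54% of all tested genes. DESeq2, which called more genes in all, called 25 members higher and these 4 lower. Its calls over the 12766 tested genes were 1125 higher and 763 lower. The 14 genes changed by 0.28 to 1.04 on the log2 scale, with adjusted p of 0.0134 to 0.0490 in edgeR, and each had every S100a16+/- library above every WT library in FPKM. The log2 change was above 0 in 74 of the 100 genes, against 50.2% of all tested genes, and its median was 0.23 over the list and 0.00 over all tested genes. All 14 calls ended when any library other than S100a16+/- replicate 3 was left out, which left 0 members and 32 to 80 genes in all called by edgeR. In those fits 24 to 29 members were still higher at an unadjusted p under 0.05, against 8.62% to 9.61% of all tested genes, and 73 to 76 of the 100 members had a log2 change above 0.

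Without S100a16+/- replicate 3, 48 members were called higher and 13 lower (edgeR), against 15.8% higher and 16.4% lower of all tested genes. The share called higher, 48 in 100, again lay above that of all genes, and the share called lower, 13 in 100, was close to it. All 14 genes were among the 48, 47 further members were called only in that fit, and 39 were called in neither.

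**Figure D1:**
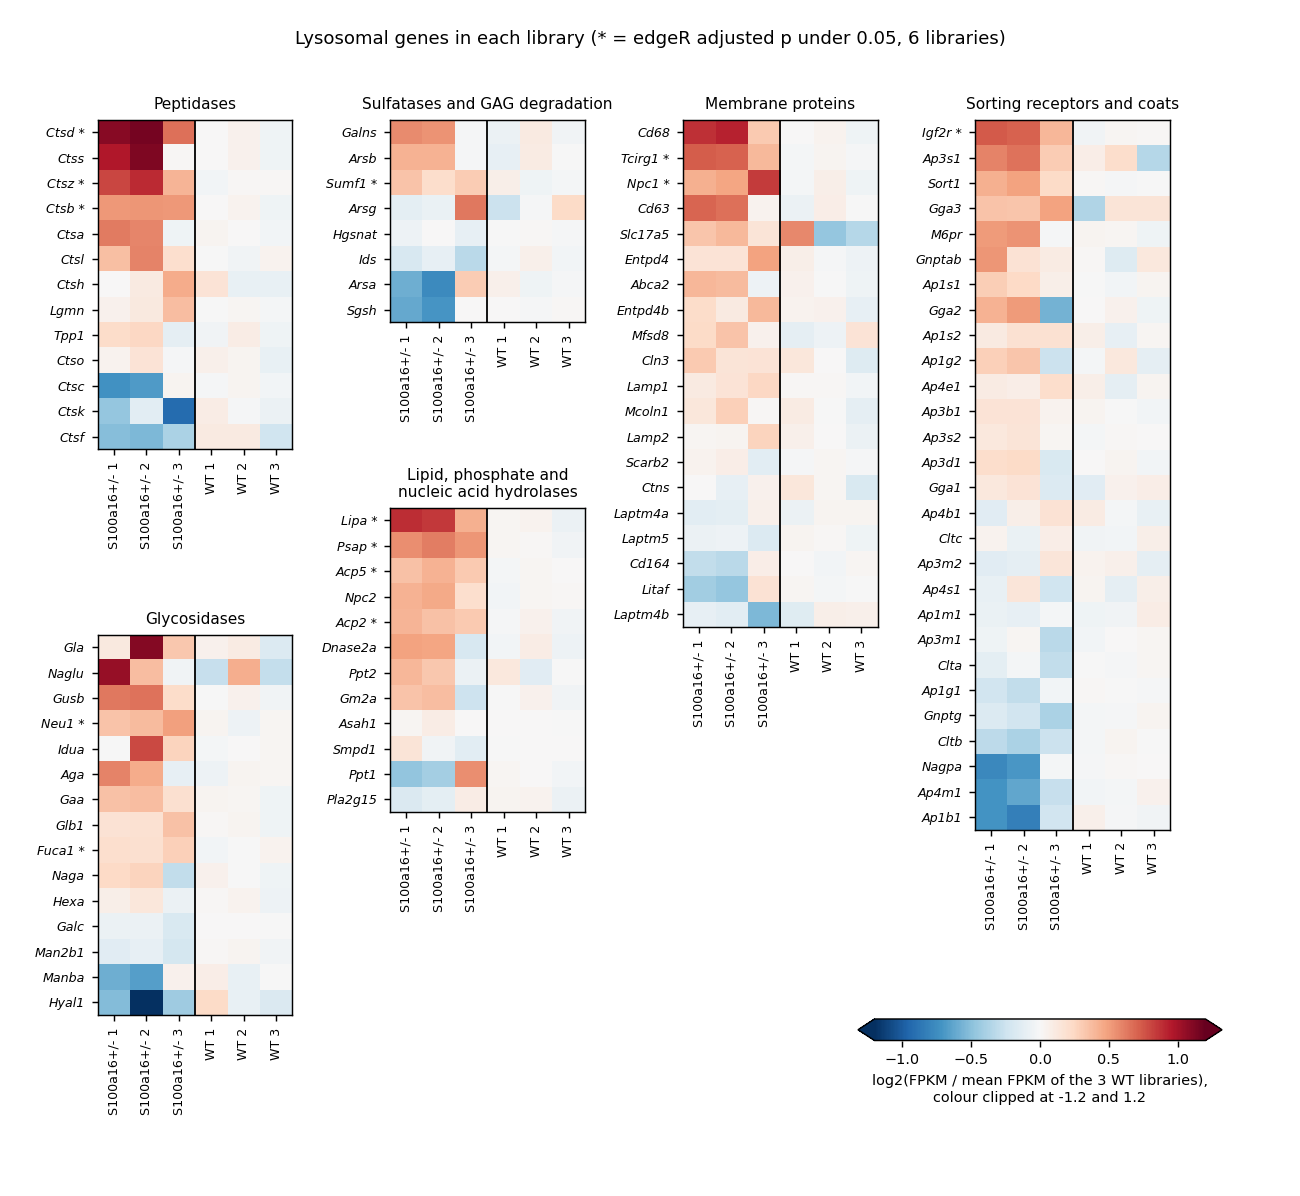
Each row is 1 lysosomal gene of the list, each column 1 library, and colour gives log2 of FPKM over the mean of the 3 WT libraries. Red is higher than the WT mean and an asterisk marks genes that passed the test, and the column of S100a16+/- replicate 3 is paler than those of replicates 1 and 2 for many genes.

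The promoters of the genes that changed were set side by side, since several hold the E-box letters of the MiT/TFE element. RefSeq promoters on GRCm38.p6, from 250 bases before to 50 bases after the start, were available for 81 of the 100 members and for 11 of the 14 that passed. The letters TCACGTGA, which read the same on both strands and contain CACGTG, stood in 9 of these 81 promoters (11.1%), those of Cd164, Cln3, Ctsa, Ctsd, Gla, Gnptg, Igf2r, Mcoln1 and Sumf1. They stood in 2.34% of the 9088 tested genes with a promoter and in 1.12% of all 27025 genes with one. The shorter CACGTG stood in 22 of the 81 (27.2%), in 12.1% of tested genes and in 8.09% of all. Of the 11 genes that passed and had a promoter, 3 held TCACGTGA, and these are printed 5′ to 3′ along the gene with the match in capitals. Ctsa, which did not pass with 6 libraries, is added because it holds the letters 2 times next to a RefSeq start. That start lies inside the coordinates of the gene (chromosome 2, 164832873 to 164840019, plus strand).
Ctsd promoter: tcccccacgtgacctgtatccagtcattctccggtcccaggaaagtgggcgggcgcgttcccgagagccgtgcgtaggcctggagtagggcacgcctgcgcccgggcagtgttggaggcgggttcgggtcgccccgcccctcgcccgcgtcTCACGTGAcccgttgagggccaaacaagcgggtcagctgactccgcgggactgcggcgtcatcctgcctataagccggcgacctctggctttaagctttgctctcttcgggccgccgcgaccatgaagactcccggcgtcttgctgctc
Igf2r promoter: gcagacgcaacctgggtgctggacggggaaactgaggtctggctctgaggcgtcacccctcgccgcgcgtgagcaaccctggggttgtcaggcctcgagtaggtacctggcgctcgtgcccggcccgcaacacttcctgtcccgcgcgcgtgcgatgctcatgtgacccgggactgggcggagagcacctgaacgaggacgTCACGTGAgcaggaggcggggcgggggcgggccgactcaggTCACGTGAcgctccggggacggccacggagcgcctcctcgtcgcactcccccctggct
Sumf1 promoter: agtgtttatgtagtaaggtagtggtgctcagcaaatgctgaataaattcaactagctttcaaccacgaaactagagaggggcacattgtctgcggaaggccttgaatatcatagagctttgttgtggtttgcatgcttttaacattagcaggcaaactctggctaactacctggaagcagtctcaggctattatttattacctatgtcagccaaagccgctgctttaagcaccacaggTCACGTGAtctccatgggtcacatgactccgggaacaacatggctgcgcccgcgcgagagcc
Ctsa promoter: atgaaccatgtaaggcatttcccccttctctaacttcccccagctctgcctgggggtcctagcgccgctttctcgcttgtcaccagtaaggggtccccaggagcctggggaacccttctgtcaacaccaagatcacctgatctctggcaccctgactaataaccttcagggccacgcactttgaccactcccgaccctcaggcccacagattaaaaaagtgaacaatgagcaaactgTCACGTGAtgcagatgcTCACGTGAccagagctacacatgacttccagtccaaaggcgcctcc
The Ctsd sequence is chr7:142387778-142388077 on the minus strand, with the match beginning 99 bases before the start. Both this RefSeq start and the match lie inside the coordinates of the gene (142375911 to 142388038). The Igf2r sequence is chr17:12769657-12769956 on the minus strand, with 2 matches, the first beginning 49 bases before the start. In Sumf1, chr6:108185534-108185833 on the minus strand, the match begins 12 bases before the start. In Ctsa, chr2:164833523-164833822 on the plus strand, the first of 2 matches begins 13 bases before it. A match describes the letters in this window only, and 8 of the 11 genes that passed had none.

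Among the peptidases, 3 of 13 tested genes rose, Ctsd, Ctsb and Ctsz, and 0 fell, while at an unadjusted p under 0.05 Ctsf was the lower one and DESeq2 called it lower. The other 6 of the 19 annotated peptidases, Napsa, Ctse, Ctsw, Ctsg, Ctsj and Ctsm, were below the FPKM minimum. Without replicate 3 the peptidase calls were 8 higher and 2 lower, against 15.8% and 16.4% of all tested genes. With 6 libraries those shares were 2.85% and 1.61%. Ctsd (ENSMUSG00000007891, chromosome 7, 142375911 to 142388038, minus strand) encodes the main aspartic protease of the lysosome. Its FPKM was 5261, 5490 and 3901 in the S100a16+/- replicates, against 2474, 2558 and 2376 in the WT replicates. Every S100a16+/- library was above the WT libraries, replicate 3 the lowest of them, with a mean of 4884 ± 859 FPKM in S100a16+/- against 2469 ± 91.4 FPKM in WT (SD, n = 3 each). The log2 change of 1.04 (SE 0.17, adjusted p = 0.0376, edgeR) was the largest rise on the list, and it was 1.19 without replicate 3. Ctsb, a cysteine protease with endopeptidase and carboxypeptidase activity, had 1315, 1331 and 1323 FPKM in S100a16+/- and 925, 950 and 885 FPKM in WT. Its S100a16+/- libraries were nearly level, replicate 3 included, and the log2 change was 0.58 (SE 0.10, adjusted p = 0.0402, edgeR), or 0.59 without replicate 3. Ctsz, a carboxypeptidase, had 921, 982 and 702 FPKM in S100a16+/- and 517, 534 and 532 FPKM in WT, a log2 change of 0.77 (SE 0.15, adjusted p = 0.0490, edgeR), or 0.91 without replicate 3.

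Other peptidases split by library. Ctss, a cysteine protease of antigen-presenting cells that trims the invariant chain of MHC class II, had 1070, 1194 and 555 FPKM in S100a16+/- and 552, 569 and 529 FPKM in WT. Replicates 1 and 2 were far above the WT libraries and replicate 3 lay within them, and its change of 0.83 on the log2 scale (SE 0.29, adjusted p = 0.176, edgeR) did not pass with 6 libraries and passed without replicate 3, at 1.10, while DESeq2 called it higher with 6 libraries. Ctsa, which shields β-galactosidase and sialidase from breakdown, had 199, 194 and 124 FPKM in S100a16+/- and 132, 129 and 126 FPKM in WT, so that replicate 3 was below the WT libraries. Its log2 change of 0.47 (adjusted p = 0.236, edgeR) was 0.67, which passed, without replicate 3. Ctsc, the dipeptidyl peptidase that activates granule proteases, went the other way, with 99.1, 102 and 167 FPKM in S100a16+/- and 163, 168 and 161 FPKM in WT. Its log2 change was -0.37 (adjusted p = 0.366, edgeR) with 6 libraries and -0.64, which passed, without replicate 3. Ctsf had 6.92, 6.77 and 7.58 FPKM in S100a16+/- and 10.6, 10.6 and 8.36 FPKM in WT. All its S100a16+/- libraries were below the WT libraries, and its log2 change of -0.42 was the lowest among the peptidases with 6 libraries (adjusted p = 0.101, edgeR). Without replicate 3 it passed, at -0.46, and Ctsc was the lowest.

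Lipid, phosphate and nucleic acid hydrolases and their activators held the most calls for their number, 5 of 13 tested genes higher and 0 lower, with 0 lower also at an unadjusted p under 0.05 in edgeR. Among all tested genes 2.85% were called higher and 1.61% lower, and 15.8% and 16.4% without replicate 3. Without replicate 3 the calls among these hydrolases and activators were 9 higher and 1 lower. Their median log2 change was 0.34, and 0.44 without replicate 3. Psapl1 and Dnase2b were below the FPKM minimum. Psap (chromosome 10, 60277627 to 60302597, plus strand) encodes the precursor of the saposins, which present sphingolipids to their hydrolases. It had 2858, 2960 and 2793 FPKM in S100a16+/- and 1974, 1958 and 1888 FPKM in WT, or 2871 ± 84.1 FPKM on average in S100a16+/- against 1940 ± 45.7 FPKM in WT (SD, n = 3 each). All 3 S100a16+/- libraries lay close together, and the log2 change was 0.62 (SE 0.10, adjusted p = 0.0371, edgeR), or 0.65 without replicate 3. Lipa, the acid lipase that frees cholesterol and fatty acids from lipoprotein lipids, had 157, 154 and 115 FPKM in S100a16+/- and 86.8, 88.2 and 81.4 FPKM in WT. Replicate 3 lay between the other S100a16+/- libraries and WT, and the log2 change was 0.79 (SE 0.15, adjusted p = 0.0472, edgeR), or 0.93 without it.

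Acp2, the lysosomal acid phosphatase, had 55.6, 53.6 and 52.2 FPKM in S100a16+/- and 41.6, 43.6 and 40.8 FPKM in WT, a log2 change of 0.41 (SE 0.06, adjusted p = 0.0330, edgeR). Acp5, the tartrate-resistant acid phosphatase of macrophages and osteoclasts, had 371, 388 and 362 FPKM in S100a16+/- and 286, 295 and 291 FPKM in WT, a log2 change of 0.41 (SE 0.07, adjusted p = 0.0402, edgeR). Without replicate 3 the log2 changes were 0.44 for Acp2 and 0.45 for Acp5. Npc2, the soluble protein that hands cholesterol to NPC1, had 134, 138 and 116 FPKM in S100a16+/- and 98.6, 102 and 102 FPKM in WT, and its log2 change of 0.41 (adjusted p = 0.0783, edgeR) was 0.50, which passed, without replicate 3. Ppt1, a thioesterase that removes fatty acids from proteins, had 32.9, 34.3 and 67.0 FPKM in S100a16+/- and 46.5, 45.9 and 44.4 FPKM in WT. Its replicates 1 and 2 were below WT and replicate 3 above, with a log2 change of 0.02 with 6 libraries (adjusted p = 0.977, edgeR) and -0.38, which passed, without replicate 3. Ppt1 overlaps Cap1 on the opposite strand, which held 329% of its counts, and no source used here says whether counting used the strand. Pla2g15, a phospholipase and acyltransferase, had the lowest log2 change of the group with 6 libraries, -0.01, or -0.08 without replicate 3, with 41.6, 43.3 and 50.1 FPKM in S100a16+/- and 47.9, 48.3 and 44.6 FPKM in WT.

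**Figure D2:**
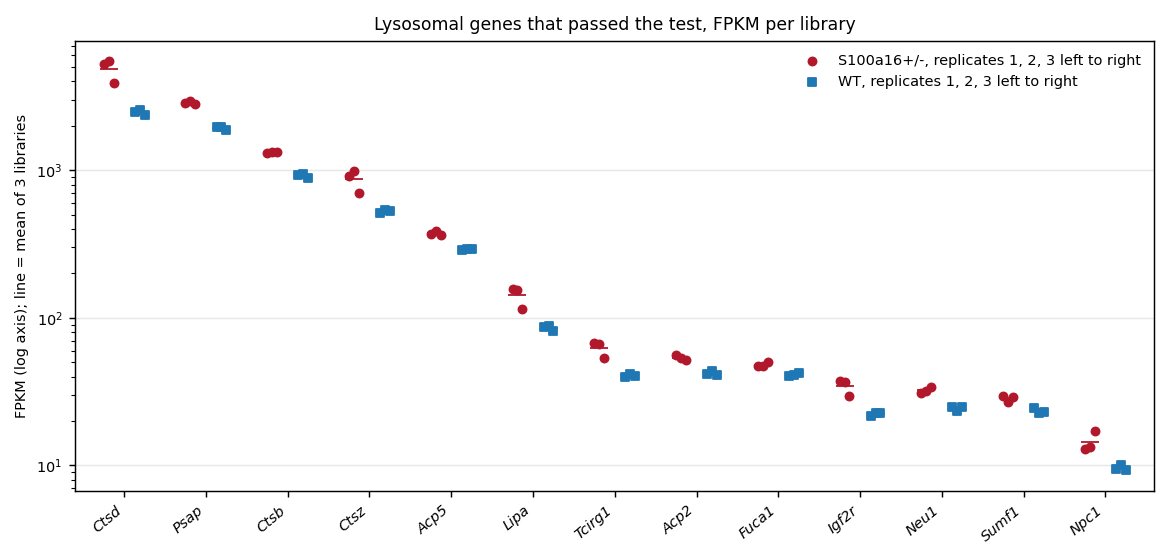
FPKM of lysosomal genes that passed the test, on a log axis, with 1 point per library and a line at each mean. S100a16+/- points lie above the WT points for every gene drawn, and replicate 3 is the lowest S100a16+/- point for genes such as Ctsd, Ctsz and Lipa but the highest for Npc1 and Neu1.

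All 17 glycosidases were tested, and 2 rose, Neu1 and Fuca1, while 0 fell, with 0 lower also at an unadjusted p under 0.05 in edgeR. Without replicate 3 the glycosidase calls were 9 higher and 1 lower, against 15.8% and 16.4% of all tested genes. With 6 libraries those shares were 2.85% and 1.61%. Neu1, the lysosomal sialidase, had 30.9, 31.7 and 34.2 FPKM in S100a16+/- and 24.9, 23.4 and 24.8 FPKM in WT. Replicate 3 was the highest library, and the log2 change was 0.46 (SE 0.06, adjusted p = 0.0232, edgeR), or 0.42 without replicate 3. Fuca1, which removes fucose from glycans, had 47.3, 46.9 and 49.9 FPKM in S100a16+/- and 40.1, 40.9 and 42.2 FPKM in WT, a log2 change of 0.28 (SE 0.05, adjusted p = 0.0490, edgeR), or 0.26 without replicate 3. It was the smallest change that passed. Gla, which removes terminal galactose from glycolipids, had the largest log2 change of the group, 0.63, without passing (SE 0.28, adjusted p = 0.253, edgeR), and did not pass without replicate 3 either, at 0.76. Its FPKM was 16.8, 33.3 and 19.4 in S100a16+/-, against 13.8 to 16.6 in WT, so that replicate 2 was far above the WT libraries and replicate 1 just above them.

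Hexa, a β-hexosaminidase subunit and the most abundant glycosidase transcript, had 318, 333 and 289 FPKM in S100a16+/- and 306, 314 and 291 FPKM in WT (log2 change 0.10, adjusted p = 0.587, edgeR, and 0.16 without replicate 3). Replicate 3 was below the WT libraries and replicates 1 and 2 just above them. Gusb, the β-glucuronidase, had 91.1, 92.3 and 68.5 FPKM in S100a16+/- and 58.4, 60.8 and 57.2 FPKM in WT, and its log2 change of 0.57 had an adjusted p of 0.0823 in edgeR and was 0.71, which passed, without replicate 3. The lowest log2 change of the whole list belonged to Hyal1, a hyaluronidase, at -0.69 (SE 0.30, adjusted p = 0.246, edgeR), or -0.87 without replicate 3, where it did not pass. Hyal1 had 1.81, 0.923 and 1.94 FPKM in S100a16+/- and 3.06, 2.45 and 2.31 FPKM in WT, and it overlaps Naa80 on the same strand, which held 236% of its counts.

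Of the 9 genes for sulfatases and glycosaminoglycan breakdown, 1 rose, Sumf1, and 0 fell, with 0 lower also at an unadjusted p under 0.05 in edgeR. Without replicate 3 the calls were 4 higher and 2 lower, against 15.8% and 16.4% of all tested genes. With 6 libraries those shares were 2.85% and 1.61%. Sumf1 encodes the endoplasmic reticulum enzyme that makes the active-site formylglycine of all sulfatases. It had 29.6, 27.1 and 28.9 FPKM in S100a16+/- and 24.5, 22.5 and 23.0 FPKM in WT. The groups were separate and replicate 3 lay inside its group, with a log2 change of 0.34 (SE 0.06, adjusted p = 0.0486, edgeR), and 0.34 without replicate 3. The sulfatases themselves differed among one another. Galns, which acts on keratan and chondroitin sulfate, had 20.7, 20.3 and 13.8 FPKM in S100a16+/- and 13.2, 15.0 and 13.6 FPKM in WT. Sgsh, the heparan sulfamidase, had 12.8, 11.9 and 19.5 FPKM in S100a16+/- and 19.5, 19.3 and 19.7 FPKM in WT. Arsa, which acts on sulfatide, had 22.2, 19.7 and 41.3 FPKM in S100a16+/- and 35.0, 32.3 and 33.1 FPKM in WT. Replicates 1 and 2 were thus above WT for Galns and below WT for Sgsh and Arsa, and replicate 3 was at the WT level for Galns and Sgsh and above it for Arsa. With 6 libraries their adjusted p in edgeR was 0.222 for Galns, 0.328 for Sgsh and 0.686 for Arsa, and without replicate 3 all of them passed, at log2 changes of 0.62, -0.60 and -0.61. Hgsnat, the acetyltransferase of heparan sulfate breakdown and the most abundant of these transcripts, had 132, 138 and 129 FPKM in S100a16+/- and 138, 140 and 136 FPKM in WT (log2 change -0.00, adjusted p = 0.999, edgeR, and 0.03 without replicate 3). The median of the group was 0.23 with 6 libraries and 0.03 without replicate 3.

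Among membrane proteins and transporters, 2 of 20 tested genes rose, Tcirg1 and Npc1, and 0 fell, with 0 lower also at an unadjusted p under 0.05 in edgeR. Lamp3 and Abcb9 were below the FPKM minimum, and without replicate 3 the calls were 8 higher and 2 lower. Among all tested genes 2.85% were called higher and 1.61% lower, and 15.8% and 16.4% without replicate 3. Tcirg1, a membrane subunit of the vacuolar proton pump that the Atp6 name does not cover, had 67.1, 66.0 and 53.1 FPKM in S100a16+/- and 39.9, 41.4 and 40.2 FPKM in WT. All S100a16+/- libraries were above WT, and the log2 change was 0.67 (SE 0.11, adjusted p = 0.0377, edgeR), or 0.78 without replicate 3. Npc1, which exports cholesterol from the lysosome, had 12.9, 13.3 and 17.2 FPKM in S100a16+/- and 9.46, 10.1 and 9.25 FPKM in WT. Replicate 3 was its highest library, and the log2 change was 0.64 (SE 0.12, adjusted p = 0.0437, edgeR), or 0.51 without replicate 3. Rmc1 overlaps Npc1 on the opposite strand and held 29.0% of its counts. Cd68, the LAMP-like glycoprotein used as a macrophage marker, had 795, 821 and 537 FPKM in S100a16+/- and 435, 447 and 418 FPKM in WT. Its groups did not overlap, and its log2 change of 0.78 (SE 0.18, adjusted p = 0.0762, edgeR) passed without replicate 3, at 0.96. Lamp1 had 648, 673 and 712 FPKM in S100a16+/- and 608, 607 and 588 FPKM in WT (log2 change 0.22, adjusted p = 0.181, edgeR, and 0.20, which passed, without replicate 3). Cd63, a tetraspanin of late endosomes, had 130, 127 and 82.3 FPKM in S100a16+/- and 76.1, 84.7 and 79.7 FPKM in WT, with replicate 3 within the WT range. Its log2 change of 0.55 (adjusted p = 0.174, edgeR) was 0.74, which passed, without replicate 3. Laptm4b, a small lysosomal membrane protein, had a log2 change of -0.19, the lowest of the group with 6 libraries (adjusted p = 0.528, edgeR) and -0.05 without replicate 3, with 17.6, 17.3 and 13.0 FPKM in S100a16+/- and 17.1, 19.8 and 19.7 FPKM in WT.

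Of 28 tested sorting receptors, tagging enzymes and coats, 1 rose, Igf2r (3.57%), and 0 fell. This was close to the 2.85% higher and 1.61% lower of all tested genes. The median log2 change of the 28 genes, 0.13, was the smallest of the role groups with 6 libraries (0.18 without replicate 3). At an unadjusted p under 0.05 in edgeR, Ap1b1, Ap4m1 and Cltb were lower, and DESeq2 called all of them lower. Ap4m1 overlaps Mcm7 and Taf6 on the opposite strand, which held 201% and 116% of its counts. Ap1m2, Ap1s3 and Ap3b2 were below the FPKM minimum. Igf2r, the large mannose 6-phosphate receptor that also clears IGF2, had 37.1, 36.5 and 29.4 FPKM in S100a16+/- and 21.7, 22.8 and 22.5 FPKM in WT. All S100a16+/- libraries were above WT, with replicate 3 the lowest of them, and the log2 change was 0.67 (SE 0.11, adjusted p = 0.0377, edgeR), or 0.78 without replicate 3. M6pr, the small receptor for the same tag, had 53.7, 54.7 and 37.3 FPKM in S100a16+/- and 38.4, 38.3 and 36.2 FPKM in WT, with a log2 change of 0.42 (adjusted p = 0.210, edgeR), or 0.59, which passed, without replicate 3. Nagpa, which uncovers the tag, had 13.3, 14.0 and 22.3 FPKM in S100a16+/- and 22.5, 22.9 and 22.8 FPKM in WT. It was lower in replicates 1 and 2 and close to WT in replicate 3 (log2 change -0.41, adjusted p = 0.293, edgeR, and -0.67 without replicate 3, where it passed).

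Coat and sorting genes went both ways. Of the 28 genes, 9 had every S100a16+/- library above every WT library, the adaptor subunits Ap1s1, Ap1s2, Ap3b1, Ap3s1, Ap3s2 and Ap4e1, the adaptor Gga3 and the receptors Sort1 and Igf2r, and 7 had every one below, against 12.5% and 18.9% of all tested genes. Gga3 overlaps Mrps7 on the opposite strand, which held 107% of its counts. At an unadjusted p under 0.05 in edgeR 8 of the 28 genes were higher and 3 lower, against 12.4% and 9.54% of all tested genes. Without replicate 3 the calls in this group were 10 higher and 5 lower, against 15.8% and 16.4%. Ap1b1, the large β subunit of the AP-1 adaptor, had 53.1, 49.5 and 74.3 FPKM in S100a16+/- and 90.8, 86.1 and 84.4 FPKM in WT. Each S100a16+/- library was below each WT library, and its log2 change of -0.51 (SE 0.15, adjusted p = 0.129, edgeR) was the lowest of the group, with -0.70, which passed, without replicate 3. Cltb, a clathrin light chain, had 12.1, 11.6 and 12.6 FPKM in S100a16+/- and 14.8, 15.5 and 15.0 FPKM in WT, and its log2 change of -0.27 had an adjusted p of 0.0615 in edgeR and was -0.28, which passed, without replicate 3. The most abundant coat transcripts passed in neither fit. Clta, the other clathrin light chain, had 132, 141 and 117 FPKM in S100a16+/- and 142, 142 and 145 FPKM in WT, and Cltc, the heavy chain, 86.3, 79.0 and 88.6 FPKM in S100a16+/- and 81.5, 81.7 and 87.8 FPKM in WT.

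**Figure D3:**
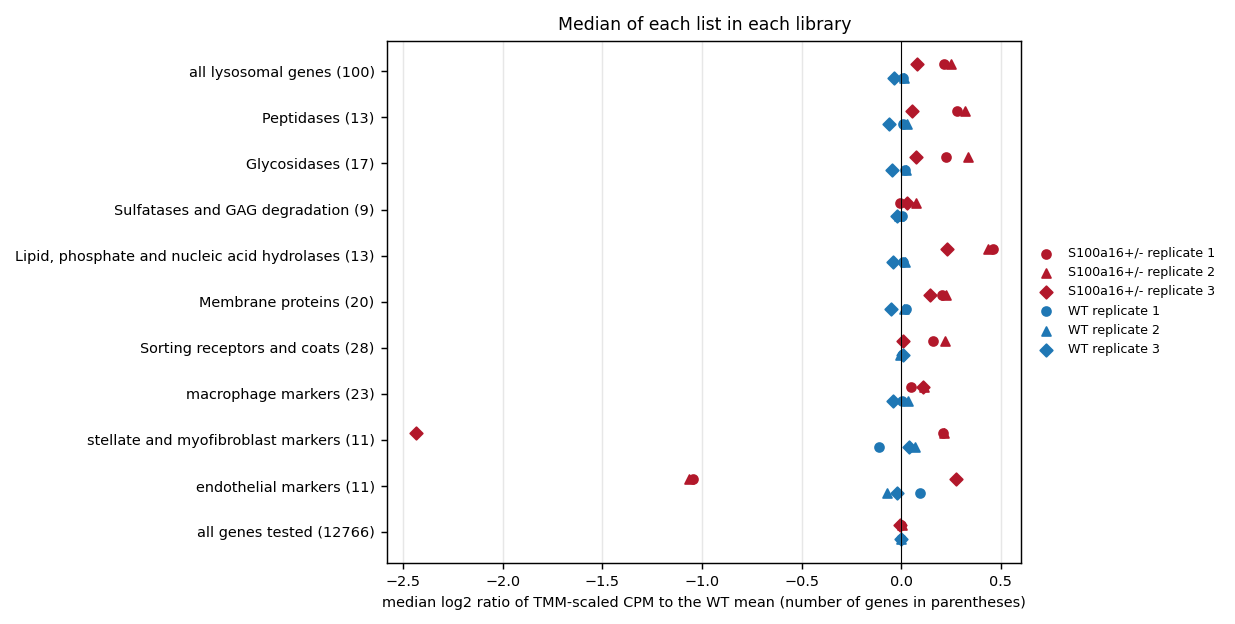
Median log2 ratio of scaled counts to the WT mean in each library, for the 100 lysosomal genes, their groups by role, 3 marker lists and all tested genes. The lysosomal medians of S100a16+/- replicates 1, 2 and 3 are 0.22, 0.25 and 0.08, against 0.01, 0.01 and -0.03 in WT, and the lipid and phosphate hydrolases reach 0.46, 0.44 and 0.23.

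The position of each library against the WT range was also counted, with no model. In 37 of the 100 genes every S100a16+/- library was above every WT library in FPKM, against 12.5% of all tested genes, and in 14 every S100a16+/- library was below, against 18.9%. In 23 further genes, Ctss, Ctsa, Cd63, M6pr and Galns among them, replicates 1 and 2 were above the WT range but replicate 3 was not, against 11% of all tested genes. In 11 genes, Ctsc, Manba, Sgsh, Arsa, Ppt1, Litaf and Cd164 among them, replicates 1 and 2 were below the WT range but replicate 3 was not, against 17.5%. Replicates 1 and 2 together were above the WT range in 60 of the 100 genes, against 23.5% of all tested genes, and below it in 25, against 36.4%.

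**Figure D4:**
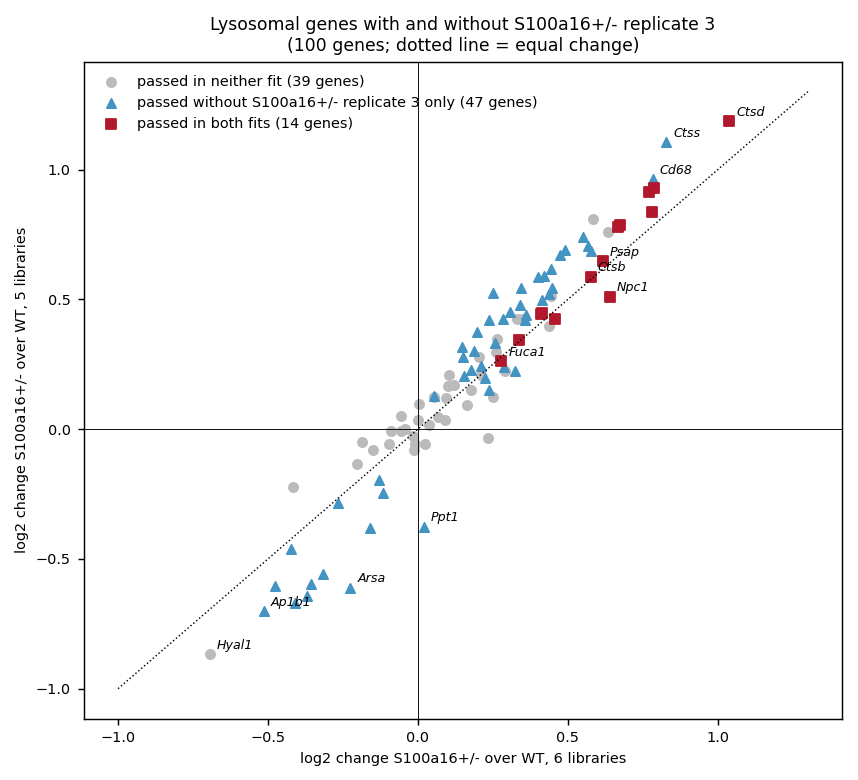
Log2 change of each of the 100 genes with 6 libraries (horizontal axis) and without S100a16+/- replicate 3 (vertical axis), with a dotted line at equal change. The 14 genes called in both fits lie in the upper right, the 47 called only without replicate 3 lie on both sides of 0, and Ctss, Cd68, Ppt1 and Arsa sit away from the line.

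Genes of lysosomal control and function outside the list were read from 4 further lists. Of 20 tested MiT/TFE factors and regulators 2 rose, Rragd and Fnip2, and without replicate 3 the count was 7, with 0 lower in either fit. Among all tested genes 2.85% were called higher and 1.61% lower, and 15.8% and 16.4% without replicate 3. Rragd, a Rag GTPase that brings the kinase complex mTORC1 to the lysosome, had 4.73, 4.94 and 4.67 FPKM in S100a16+/- and 2.15, 1.83 and 2.03 FPKM in WT. Replicate 3 matched the other S100a16+/- libraries, and the log2 change was 1.31 (SE 0.10, adjusted p = 0.00547, edgeR), or 1.33 without replicate 3. Fnip2, a partner of folliculin in the same pathway, had 11.5, 12.2 and 11.7 FPKM in S100a16+/- and 9.48, 9.03 and 8.44 FPKM in WT, a log2 change of 0.44 (SE 0.07, adjusted p = 0.0317, edgeR), or 0.46 without replicate 3. The factors themselves did not pass with 6 libraries. Tfeb had 3.42, 5.35 and 2.94 FPKM in S100a16+/- and 4.23, 2.82 and 2.95 FPKM in WT (log2 change 0.28, adjusted p = 0.621, edgeR, and 0.46 without replicate 3). Tfe3 had 12.9, 13.2 and 11.7 FPKM in S100a16+/- and 10.8, 11.6 and 11.7 FPKM in WT (0.20, adjusted p = 0.197). Mitf had 7.19, 7.09 and 4.75 FPKM in S100a16+/- and 5.64, 5.90 and 5.48 FPKM in WT (0.21, adjusted p = 0.548), and Tfec 7.89, 4.50 and 4.99 FPKM in S100a16+/- and 4.49, 4.23 and 4.07 FPKM in WT (0.49, adjusted p = 0.271, and 0.60 without replicate 3). Only replicate 1 was well above WT for Tfec and only replicate 2 for Tfeb, and without replicate 3 Tfe3 and Mitf passed, at 0.26 and 0.39, and Tfeb and Tfec did not.

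Of 28 lysosomal proteins outside the KEGG list, 2 rose, Slc15a3 and Clcn7, and 0 fell with 6 libraries in edgeR. Without replicate 3, 14 were called higher and 5 lower, against 15.8% and 16.4% of all tested genes. With 6 libraries those shares were 2.85% and 1.61%. Slc15a3, a lysosomal peptide and histidine transporter, had 88.6, 92.3 and 51.9 FPKM in S100a16+/- and 24.2, 30.1 and 24.4 FPKM in WT. Its groups were far apart, with a log2 change of 1.62 (SE 0.25, adjusted p = 0.0311, edgeR), or 1.85 without replicate 3, and Tmem132a on the opposite strand held 39.4% of its counts. Clcn7, the chloride and proton exchanger of the lysosome, had 41.9, 42.8 and 30.3 FPKM in S100a16+/- and 20.5, 21.1 and 20.3 FPKM in WT, a log2 change of 0.95 (SE 0.15, adjusted p = 0.0326, edgeR), or 1.10 without replicate 3. Gpnmb, a lysosomal glycoprotein, had 741, 760 and 205 FPKM in S100a16+/- and 176, 181 and 169 FPKM in WT. Replicates 1 and 2 were far above WT and replicate 3 just above it, and the log2 change of 1.76 (SE 0.50, adjusted p = 0.115, edgeR) passed without replicate 3, at 2.16. Grn, the progranulin precursor, had 194, 293 and 236 FPKM in S100a16+/- and 194, 193 and 203 FPKM in WT (0.35, adjusted p = 0.278, and 0.37, which did not pass, without replicate 3).

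Of 12 listed cathepsin inhibitors 3 met the FPKM minimum, and 0 passed with 6 libraries in edgeR, although Cstb and Cst3 had an unadjusted p under 0.05. Without replicate 3 all of them were called, Cstb and Cst3 higher and Serpinb6a lower. Cstb, the cytosolic cystatin B, had 466, 463 and 228 FPKM in S100a16+/- and 200, 219 and 211 FPKM in WT (log2 change 0.93, adjusted p = 0.136, edgeR, and 1.21 without replicate 3). Cst3, the secreted cystatin C, had 296, 308 and 272 FPKM in S100a16+/- and 262, 261 and 261 FPKM in WT (0.21, adjusted p = 0.186, and 0.27 without replicate 3). Both had every S100a16+/- library above every WT library. Of 19 tested genes of lysosome fusion and transport 1 rose, Plekhm1, an adaptor that joins lysosomes to their fusion machinery, and 10 were called higher without replicate 3. Among all tested genes 2.85% were called higher and 1.61% lower, and 15.8% and 16.4% without replicate 3. Plekhm1 had 27.1, 27.7 and 20.9 FPKM in S100a16+/- and 17.0, 16.6 and 15.7 FPKM in WT (0.67, SE 0.13, adjusted p = 0.0497, edgeR), or 0.80 without replicate 3. The 5 genes called in these lists were followed through the fits with 1 library left out. Among those fits Rragd lost its call only without WT replicate 3 (adjusted p = 0.0540, edgeR, and 0.000404 to 0.0404 with any other library left out). Fnip2, Clcn7, Slc15a3 and Plekhm1 lost theirs when any library other than S100a16+/- replicate 3 was left out. With the replicate number as a block, 0 genes were called in edgeR, Rragd included.

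**Figure D5:**
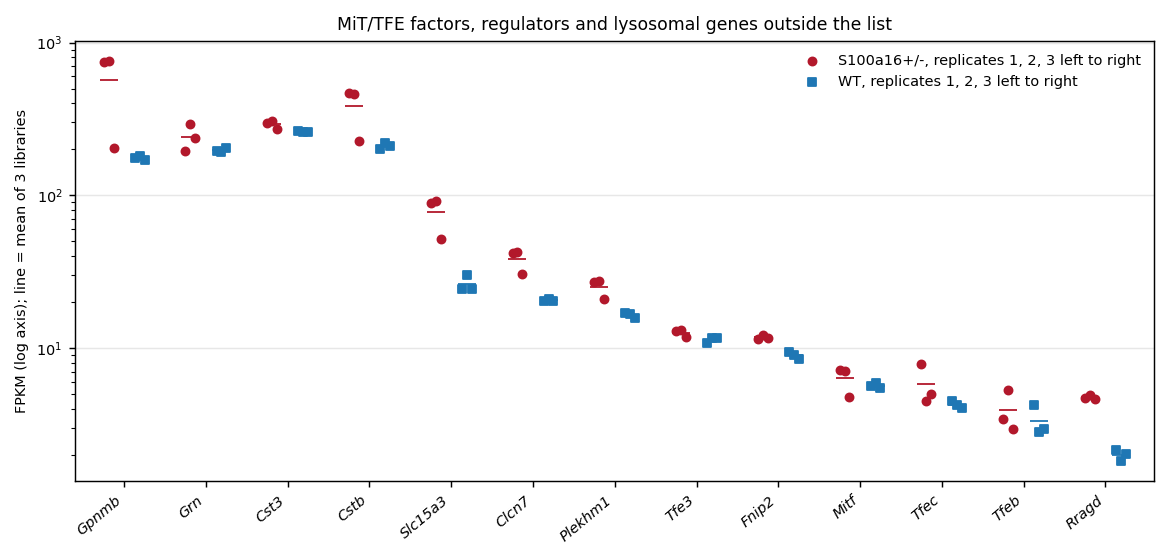
FPKM per library, on a log axis, of MiT/TFE factors, their regulators and lysosomal genes outside the list, with a line at each mean. Rragd, Slc15a3 and Clcn7 have all S100a16+/- points above WT, while for Gpnmb and Cstb S100a16+/- replicate 3, at 205 and 228 FPKM, lies near the WT points.

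The lysosomal genes at the edge of the FPKM rule were Mfsd8, Arsg and Ap4e1 just inside and Napsa, Abcb9 and Ap1s3 just outside. Mfsd8, a chloride channel of the lysosomal membrane, had 1.06, 1.14 and 0.934 FPKM in S100a16+/- and 0.834, 0.862 and 1.01 FPKM in WT. Napsa, an aspartic protease best known from lung and kidney, had 1.41, 1.23 and 0.895 FPKM in S100a16+/- and 0.360, 0.233 and 0.182 FPKM in WT, and so met the minimum in 2 libraries only. Arsg, a sulfatase, had 0.993, 1.01 and 1.66 FPKM in S100a16+/- and 0.897, 1.07 and 1.26 FPKM in WT, and Ap4e1, an AP-4 subunit, 1.46, 1.44 and 1.57 FPKM in S100a16+/- and 1.43, 1.27 and 1.40 FPKM in WT. Abcb9, a peptide transporter, had 0.493, 0.401 and 0.351 FPKM in S100a16+/- and 0.595, 0.509 and 0.303 FPKM in WT. Ap1s3, a small AP-1 subunit, had 0.684, 0.531 and 0.239 FPKM in S100a16+/- and 0.177, 0.345 and 0.223 FPKM in WT.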

How the data were processed

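The labels' protocols describe poly(A) RNA made into strand-marked dUTP libraries with molecular identifiers. Tools named in the submitters' processing notes are HISAT2 2.0.4, StringTie 1.3.4d, cutadapt 1.9, edgeR, DESeq2 and UMI-tools. Not given in the sources used here were their roles, the genome build, the use of strand and the collapse of identifiers. Per the file headers, 55401 genes carry a count and an FPKM in each of the 6 libraries. The counts as deposited were whole and unscaled. The authors' FPKM, per the file headers, is relative to gene length and library size, with 0.0001 standing for a gene without counts. Coordinates are the table's. GENCODE M21 (GRCm38) held all 100 members, 88 with the same coordinates.

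Counts of the 12766 genes with at least 1 FPKM in at least 3 libraries entered edgeR 4.0.16 (R 4.3.3), with TMM scaling, its quasi-likelihood test and a model of genotype alone. The adjusted p is Benjamini-Hochberg over all of them, genes are called when it is under 0.05 whatever their fold, and log2 changes are S100a16+/- over WT. Levels between genes are compared in FPKM, per length. Replicates of a group differed by more than sampling noise, so all were kept. The edgeR step was tested on simulated data. Alternatives were library totals without TMM, DESeq2 1.42.0, no low-level filter, a mean FPKM of at least 5, limma 3.58.1 on log2(FPKM + 1) and log2(FPKM + 0.1), the replicate number as a block and each library left out.

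The members, role lists and pathway lists were chosen with earlier results of these data known. Named genes are S100a16, the members called, the 2 most abundant and the 2 most changed members of each role, up to 4 genes of each pathway list, Tfeb, Tfe3, Mitf, Tfec, Grn, Gpnmb, the genes at the edge of the FPKM rule and the macrophage markers Lyz2 and Csf1r. Markers of other cell types are given as sums or are not reported here. A few genes that enter the counts and medians are not reported here by name or drawn. Ctss, Ctsc, Ctsa, Gusb, Manba, Npc2, Ppt1, Sgsh, Arsa, Cd63, M6pr, Nagpa, Cltb, Ap4m1 and the others listed by position against the WT range were named after their values were seen. Of the 100 members, 18 overlap an annotated gene with at least 10% of their counts, 1 of them among those called (Npc1), and Entpd4 and Entpd4b are near-identical copies whose counts are uncertain. Promoters are RefSeq's.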

Additional observations from a re-analysis of the deposited data

How the results depend on the processing

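Counts of calls depended on the tool and the libraries. The count of members called higher, 14 in edgeR, was 25 by DESeq2, 3 with no filter on low levels, 9 and 4 by limma on log2(FPKM + 1) and log2(FPKM + 0.1), and 0 to 48 with 1 library left out. Members called lower numbered 0 in edgeR (4 at an unadjusted p under 0.05), 1 with library totals, 4 by DESeq2, 1 of 91 with a mean FPKM of at least 5, and 0 to 13 with 1 library left out. Over all tested genes, 364 higher and 206 lower became 1125 and 763 by DESeq2, 162 and 81 with no filter, 266 and 137 with a mean FPKM of at least 5, 214 higher by limma on log2(FPKM + 0.1), and 22 to 2022 higher and 10 to 2093 lower with 1 library left out. The share of all calls that were higher, 63.9%, was 52.8% with library totals and 50.5% and 52.2% by the limma fits, and among members it was 90.9% with library totals. The median log2 change of members, 0.23, was 0.14 by limma on log2(FPKM + 1), where that of all tested genes was -0.05, and 0.19 to 0.24 with 1 library left out. S100a16 stayed lower, at -1.36 with no filter (adjusted p = 0.0516, edgeR) and -1.23 to -1.63 with 1 library left out.

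Same-numbered deviations from the group means correlated at -0.14, 0.04 and -0.05, and differently numbered ones at -0.08 to 0.11. With 3 libraries per group these values cannot show whether libraries share an animal, litter or day, and no label says so. With the replicate number as a block, 0 members and 0 genes were called higher or lower in edgeR, 29 members were higher and 5 lower at an unadjusted p under 0.05, against 9.66% and 7.63% of all tested genes, and S100a16 was at -1.39 (adjusted p = 0.139).

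Named genes near 0 changed sign. Hgsnat, at -0.00, was at 0.00108 by DESeq2 and at -0.038 to 0.034 with 1 library left out. With 1 library left out, the log2 change of Pla2g15 was -0.082 to 0.038, that of Tfeb -0.025 to 0.49 and that of Arsg -0.034 to 0.36. The cause of these shifts was not tested.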

Other observations

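Over the 100 lysosomal genes alone, S100a16+/- replicate 3 was closer to the WT libraries than to the others of its genotype, as it was over all tested genes. The log2 FPKM of S100a16+/- replicate 3 correlated across the members at 0.986 and 0.985 with S100a16+/- replicates 1 and 2, and at 0.993, 0.992 and 0.992 with WT replicates 1, 2 and 3. S100a16+/- replicates 1 and 2 correlated at 0.997, and the WT libraries at 0.998 for each pair. Between S100a16+/- replicates 1 and 2 and the WT libraries the values were 0.983 to 0.987. These are correlations across genes that share their libraries, and genes are not independent replicates.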
